A study of Homo sapiens with 12 samples.

Results

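The genes described here carry signals from the leukemia inhibitory factor and interleukin-6 receptors to the nucleus: the receptor subunits LIFR, IL6ST and IL6R, the kinases JAK1 and JAK2, the transcription factor STAT3, and the feedback inhibitors SOCS1, SOCS2, SOCS3 and CISH. They were chosen by name, 10 of the 34643 genes in the table of RNA-seq counts. Earlier results for these libraries were known, so the choice was not blind to the values reported here. Members with counts near 0 are described but were not tested. Of the 10, 8 passed the filter on low counts that left 15419 genes for testing. SOCS1 (0 to 6 counts per library) and SOCS3 (0 to 5 counts) did not pass it, and CISH (34 to 75 counts) was the lowest of those inside it.

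The study examined how silencing of TMEFF2, a transmembrane protein of prostate cells, alters the androgen response of prostate cancer cells. LNCaP, an androgen-dependent line from a lymph node metastasis of prostate cancer, was transduced with lentiviral pLKO.1-puro particles in which the U6 promoter drove a short hairpin RNA against TMEFF2 (sh_TMEFF2) or a scrambled control (sh_scramble). Treatment began about 2.5 weeks after transduction per the labels, and the study's methods give a shorter time. After puromycin selection all cells spent 24 h in medium with charcoal-stripped serum, which is depleted of androgen, and then 24 h with 10 nM dihydrotestosterone (+DHT) or with ethanol vehicle (−DHT). Each of the 4 groups had 3 libraries, from independent treatments of 2 separate transductions, and the source of each library among the transductions is not given in the sources used here. All groups thus shared the lentiviral vector, the selection and the androgen depletion, and the sources do not name which TMEFF2 hairpin the sequenced cells carried. Libraries held 19450866 to 22612046 counts (median 21194622), and levels are given as CPM, counts divided by the TMM-scaled library total, in the order of replicates 1 to 3.

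Cytokines of the interleukin-6 family act through receptor complexes that share gp130, the protein encoded by IL6ST. LIFR pairs with gp130 to bind leukemia inhibitory factor, whereas IL6R brings interleukin-6 to gp130. JAK1 and JAK2, bound to the receptors, phosphorylate STAT factors such as STAT3, which enter the nucleus and switch on target genes. Proteins of the SOCS family and CISH are induced by cytokine signals and damp them at the receptor, and SOCS2 is best known for restraining growth hormone signalling.

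LIFR and SOCS2 were the members with a large DHT response. Both rose about 3-fold with DHT in sh_scramble, neither passed the test in sh_TMEFF2, and the responses of the lines differed. The kinase transcripts JAK2 and, only just within the limits, JAK1 fell in sh_scramble with DHT, while IL6ST, IL6R, STAT3 and CISH stayed within 1.5-fold in all comparisons. Calls required a 1.5-fold change with an adjusted p no higher than 0.05 in edgeR's quasi-likelihood test. By that rule 4 of the 8 members were called for DHT in sh_scramble, where 11.9% of all genes tested were called, 2 of them higher (5.45% of all genes) and 2 lower (6.45%). The JAK1 call among them had an edgeR adjusted p of 0.0477. It was lost in 9 of 18 alternative settings, which left 3 members called. For DHT in sh_TMEFF2 0 of 8 were called, against 4.88% of all genes (3.28% higher and 1.6% lower). Between the lines 0 of 8 were called without DHT, where the background was 0.571% (0.298% higher and 0.272% lower). With DHT 2 of 8 were lower in sh_TMEFF2 and 0 higher, where 6.77% of all genes were called, 3.74% lower and 3.03% higher. For the difference between the DHT responses, called on the adjusted p alone, 2 of 8 passed, both with the lower response in sh_TMEFF2, beside 4.94% of all genes (3.29% lower and 1.65% higher). The median log2 fold change of the 8 was −0.16 for DHT in sh_scramble and −0.12 for DHT in sh_TMEFF2, and that of all genes was −0.01 and −0.02.

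Separation of the 3 libraries of one group from the 3 of another was common among all genes. With DHT in sh_scramble 3 members (LIFR, STAT3 and SOCS2) had all libraries higher, as did 21.3% of all genes, and 3 (IL6ST, JAK1 and JAK2) had all lower, as did 20.5%. In sh_TMEFF2 0 were higher (15.6% of all genes) and 1, CISH, was lower (15.7%). Between the lines without DHT STAT3 was higher in sh_TMEFF2 (9.35% of all genes) and JAK2 lower (9.18%). With DHT JAK1 and CISH were higher (15.5%) and LIFR and SOCS2 lower (17%).

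**Figure D1:**
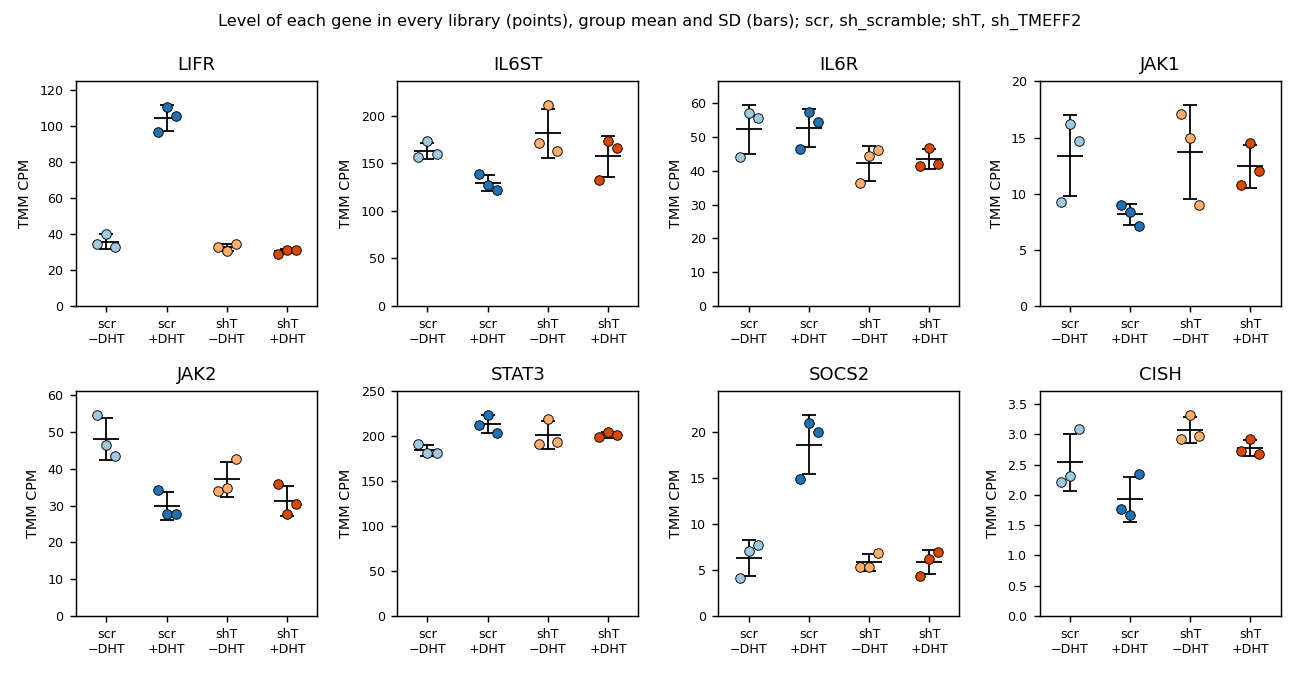
TMM-scaled CPM (vertical axes, from 0) of the 8 members tested in the 4 groups. Points are libraries (n = 3 per group) and bars are means ± SD. LIFR and SOCS2 stand high in sh_scramble +DHT and at one low level in the other groups.

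Sequence upstream of the annotated starts is shown for LIFR, which responded to DHT, and for CISH, a standard target of STAT5, which did not pass the test. RefSeq promoters (GRCh38.p14) matched 9 of the 10 members, all but SOCS2, with 17 starts. The 250 bases before each start were searched for TTCNNNGAA, the letters bound by STAT factors, for GNACA, any 3 bases and TGTNC in a row, a full androgen response element, and for AGAACA, 1 arm of that element, each on both strands. Capitals mark the matches in these runs, which read 5′ to 3′ on the minus strand of each gene and end at the base before the start.
LIFR, chr5:38595406-38595655: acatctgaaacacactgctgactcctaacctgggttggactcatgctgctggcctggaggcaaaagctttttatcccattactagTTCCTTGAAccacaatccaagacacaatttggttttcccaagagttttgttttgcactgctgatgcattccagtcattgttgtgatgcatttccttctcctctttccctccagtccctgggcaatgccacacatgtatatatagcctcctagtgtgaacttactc
LIFR, chr5:38557468-38557717: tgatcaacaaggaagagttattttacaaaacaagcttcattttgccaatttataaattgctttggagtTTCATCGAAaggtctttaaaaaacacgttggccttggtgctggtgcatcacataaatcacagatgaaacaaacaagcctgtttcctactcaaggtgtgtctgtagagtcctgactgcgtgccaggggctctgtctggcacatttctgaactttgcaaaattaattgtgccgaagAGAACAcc
CISH, chr3:50611775-50611904: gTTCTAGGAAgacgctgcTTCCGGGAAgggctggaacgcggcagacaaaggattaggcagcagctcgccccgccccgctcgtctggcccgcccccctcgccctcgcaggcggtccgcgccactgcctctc
The first LIFR start had 1 TTCNNNGAA match, 165 to 157 bases upstream. The start at the second run had 1 such match at 182 to 174 bases and 1 AGAACA at 8 to 3 bases, and that run lies partly in an exon of the antisense gene LIFR-AS1. A further LIFR start held none of the motifs. IL6R, whose DHT response was near 0, had 1 AGAACA match on the other strand, 140 to 135 bases upstream. CISH had 4 TTCNNNGAA matches within 250 bases, of which the 130 bases printed hold 2, and the rest of its window lies in exons of MAPKAPK3. Of the 17 starts 3 held TTCNNNGAA and 2 held AGAACA. Among all 35116 promoters of the same length, 6.57% held TTCNNNGAA, 12.4% AGAACA and 0.327% the full element. The full element was found upstream of 0 of the 17 starts. Which LIFR start these cells used was not measured.

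TMEFF2 itself, the gene aimed at (chromosome 2, 191949043 to 192194933, minus strand), is given first as a check of the labels. It was at 77.8, 73.8 and 103 CPM in sh_scramble −DHT and at 68.6, 39.3 and 81.7 CPM in sh_TMEFF2 −DHT. With DHT it was at 173, 117 and 169 CPM in sh_scramble and at 142, 90.1 and 114 CPM in sh_TMEFF2. The mean was lower in sh_TMEFF2 at both DHT levels, but the libraries overlapped. By edgeR the lines differed by a log2 fold change of −0.43 ± 0.25 (SE) without DHT (adjusted p = 0.503) and of −0.41 ± 0.25 with DHT (adjusted p = 0.304), so a lower TMEFF2 transcript level was not shown by the test in these libraries. The study's own evidence of silencing lies outside these counts. It reported lower TMEFF2 protein by Western blot in LNCaP cells with some of its hairpins, and also measured TMEFF2 mRNA.

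The androgen controls rose with DHT in sh_scramble. KLK3, which encodes prostate-specific antigen, went from 1921, 1953 and 1900.5 CPM to 7529, 7219 and 7737 CPM there, and from 305, 255 and 509 CPM to 1452, 1921 and 2474 CPM in sh_TMEFF2. FKBP5, a chaperone of steroid receptors, went from 55.0, 64.3 and 71.1 CPM to 585, 744 and 653 CPM in sh_scramble and from 57.3, 58.6 and 66.1 CPM to 86.1, 114 and 136 CPM in sh_TMEFF2. Both genes were thus higher with DHT in every library of both lines. The log2 DHT response of KLK3 was 1.96 ± 0.22 (SE) in sh_scramble and 2.45 ± 0.23 in sh_TMEFF2, and the difference did not pass edgeR's test (adjusted p = 0.46). That of FKBP5 was 3.38 ± 0.16 and 0.89 ± 0.15, and this difference did pass (adjusted p = 8.4e-05). TMPRSS2, a membrane protease induced by androgen, responded by 2.97 ± 0.50 and 0.70 ± 0.47, a difference at adjusted p = 0.074.

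The identity of the cells was checked with marker genes. All 8 luminal prostate markers passed the filter. Their summed level averaged 6774 CPM in sh_scramble −DHT, 14119 in sh_scramble +DHT, 4589 in sh_TMEFF2 −DHT and 5748 in sh_TMEFF2 +DHT. KLK3 was the most abundant of them on the mean of all libraries, though not in the −DHT groups, where the luminal marker FOLH1 was higher. Basal markers were near 0: KRT5 had 0 counts, TP63 at most 9, and KRT14, the most abundant of the 3 on the mean of all libraries though not in the −DHT groups, at most 29, with a sum of 0.0787 CPM in sh_scramble −DHT and 1.35 CPM in sh_scramble +DHT. The 4 stromal and endothelial markers summed to 20.4, 13.6, 26.9 and 17.0 CPM in the same order of groups, nearly all of it COL1A1, while COL1A2 had at most 8 counts and DCN at most 13. The 4 blood markers summed to 5.18, 3.65, 7.27 and 5.32 CPM, mostly PTPRC, with CD3E at most 1 count, CD14 at most 7 and HBB at 0. These sums moved with DHT and with the line, and their part in the results was not tested. In bulk RNA a change in the number of cells of a type and a change in RNA per cell cannot be told apart.

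LIFR (chromosome 5, 38474668 to 38608354, minus strand) encodes the subunit that gives gp130 its affinity for leukemia inhibitory factor. In sh_scramble it was at 34.3, 40.2 and 32.6 CPM without DHT and at 96.6, 111 and 106 CPM with DHT. In sh_TMEFF2 it was at 32.4, 30.6 and 34.3 CPM without DHT and at 29.0, 31.0 and 31.1 CPM with DHT. The 3 sh_scramble +DHT libraries stood apart from the other 9, which lay between 29.0 and 40.2 CPM. Means were 35.7 ± 3.98 (SD, n = 3) and 104 ± 7.29 CPM in sh_scramble, and 32.5 ± 1.84 and 30.4 ± 1.15 CPM in sh_TMEFF2.

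The DHT response of LIFR in sh_scramble was 2.92-fold, a log2 fold change of 1.55 ± 0.087 (SE, edgeR adjusted p = 1.47e-07). In sh_TMEFF2 it was −0.10, with a 95% interval of −0.29 to 0.09 (adjusted p = 0.531). The difference between the responses was −1.64 ± 0.12 on the log2 scale (95% interval −1.91 to −1.38, edgeR adjusted p = 6.65e-05). Without DHT the lines differed by −0.14 (adjusted p = 0.546), and with DHT LIFR was 3.44-fold lower in sh_TMEFF2 (adjusted p = 4.27e-07). Of the 15419 genes, 240 (1.56%) had a log2 DHT response in sh_scramble at least as high, LIFR included, and 103 (0.668%) were at least as far below in sh_TMEFF2 with DHT. The calls for LIFR held under all 18 alternative settings, with the response in sh_scramble between 1.48 and 1.64. Noncoding genes that overlap the members share 629 bases of exon with LIFR, 797 with IL6ST, 647 with JAK1 and 277 with SOCS2. These noncoding genes had no row under their names among the counts, so they could not be analysed here. Without a stated use of strand their reads cannot be told apart from those of the members.

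IL6ST (chromosome 5, 55935095 to 55995022, minus strand), the gene of gp130, was at 157, 173 and 160.1 CPM in sh_scramble −DHT and at 139, 127 and 122 CPM in sh_scramble +DHT. It was at 171, 211 and 163 CPM in sh_TMEFF2 −DHT and at 132, 173 and 166 CPM in sh_TMEFF2 +DHT. Within sh_scramble the DHT libraries were all lower, whereas those of sh_TMEFF2 overlapped. The log2 response was −0.34 ± 0.11 (SE) in sh_scramble (edgeR adjusted p = 0.041, a change of 1.26-fold and so below the fold limit) and −0.21 in sh_TMEFF2 (adjusted p = 0.251). The difference between the responses was 0.13, with an interval of −0.21 to 0.47.

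IL6R (chromosome 1, 154405193 to 154469450, plus strand), the interleukin-6 binding subunit, ranged from 36.3 to 57.5 CPM over the 12 libraries, and the groups overlapped in all 4 comparisons. Its DHT response was 0.01 on the log2 scale in sh_scramble (95% interval −0.24 to 0.27, edgeR adjusted p = 0.948) and 0.04 in sh_TMEFF2 (interval −0.22 to 0.30, adjusted p = 0.879). Mean levels were 52.3 ± 7.21 and 52.8 ± 5.63 CPM in sh_scramble and 42.2 ± 5.24 and 43.4 ± 2.97 CPM in sh_TMEFF2 (SD, n = 3), a difference between the lines of −0.31 without DHT (adjusted p = 0.275) and −0.28 with DHT (adjusted p = 0.134).

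The level of LIFR relative to IL6ST was highest in sh_scramble +DHT. To compare levels between genes, CPM were divided by the length of each gene's canonical transcript in kilobases. LIFR then came to 18.8%, 19.9% and 17.4% of the IL6ST level in the sh_scramble −DHT libraries and to 59.6%, 74.7% and 74.2% in the sh_scramble +DHT libraries. In sh_TMEFF2 it came to 16.2%, 12.4% and 18.0% without DHT and to 18.8%, 15.3% and 16.0% with DHT. The share was 69.5 ± 8.56% (SD, n = 3) in sh_scramble +DHT and at most 19.9% in any other library.

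**Figure D2:**
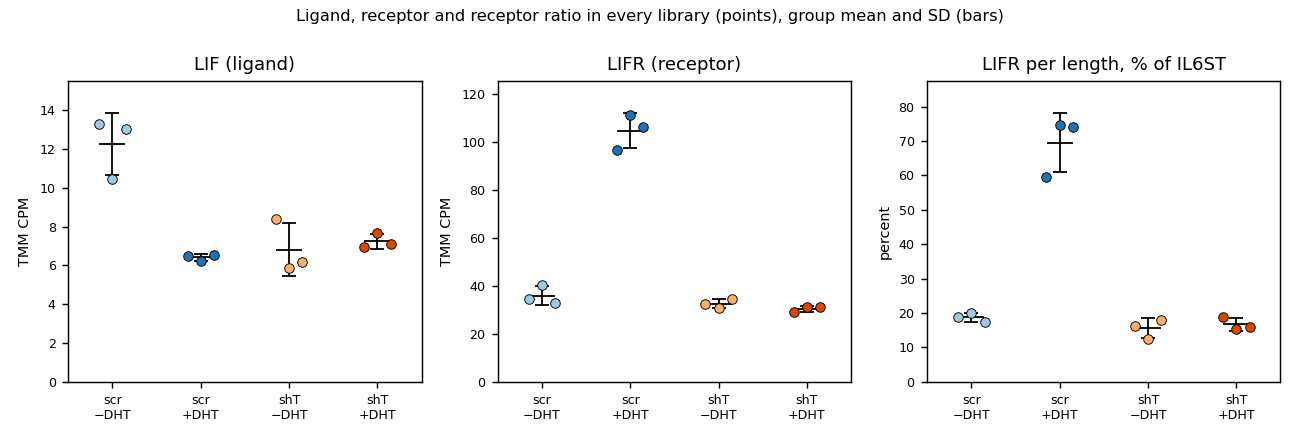
Levels of the ligand gene LIF (left) and the receptor gene LIFR (middle) in TMM-scaled CPM, and LIFR as a percentage of IL6ST per kilobase (right), in the 4 groups (scr, sh_scramble, and shT, sh_TMEFF2). Points are libraries (n = 3 per group), bars are means ± SD, and all axes start at 0. In sh_scramble DHT goes with lower LIF and a higher LIFR share.

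LIF, the ligand of LIFR, moved the other way. It was at 13.3, 10.4 and 13.0 CPM in sh_scramble −DHT and at 6.46, 6.2 and 6.55 CPM in sh_scramble +DHT. Values for sh_TMEFF2 were 8.36, 5.89 and 6.17 CPM without DHT and at 6.94, 7.67 and 7.12 CPM with DHT. The sh_scramble −DHT libraries were the 3 highest of the 12. LIF fell by 0.94 on the log2 scale with DHT in sh_scramble (SE 0.15, edgeR adjusted p = 0.000558) and responded by 0.09 in sh_TMEFF2 (adjusted p = 0.757), and the responses differed by 1.03 ± 0.21 (adjusted p = 0.0158). Without DHT it was 1.80-fold lower in sh_TMEFF2 (adjusted p = 0.0214), a call that was lost when sh_scramble −DHT replicate 1 or 3 or sh_TMEFF2 −DHT replicate 2 or 3 was left out, with adjusted p up to 0.0981.

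The other ligands and receptors of the gp130 family were mostly near 0 or not called. Interleukin-6 (IL6) and EBI3 had 0 counts in all 12 libraries, the largest count of OSM was 2, and that of IL27 and of the receptor gene CNTFR was 3. At these depths a count of 0 allows up to 3 counts per library. Of the 9 ligands 4 were tested and 1, LIF, was called in any comparison of groups. Of the 5 other receptors 4 were tested, and IL27RA, the interleukin-27 receptor chain, was called for DHT in sh_scramble. It had 22, 26 and 19 counts without DHT and 5, 8 and 14 with DHT, a fall of 1.27 on the log2 scale (SE 0.41, edgeR adjusted p = 0.0371). That call was lost with DESeq2 and when any of sh_scramble −DHT replicates 1, 2 and 3 or sh_scramble +DHT replicates 1 and 2 was left out, with adjusted p up to 0.125.

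JAK2 (chromosome 9, 4984390 to 5129948, plus strand), a tyrosine kinase of gp130 and of the growth hormone and prolactin receptors, was at 54.6, 46.5 and 43.4 CPM in sh_scramble −DHT and at 34.3, 27.7 and 27.7 CPM in sh_scramble +DHT. Levels in sh_TMEFF2 were 34, 34.8 and 42.7 CPM and, with DHT, at 35.8, 27.8 and 30.5 CPM. The sh_scramble −DHT libraries stood above the other 9. JAK2 fell with DHT in sh_scramble by 0.69 on the log2 scale (SE 0.13, edgeR adjusted p = 0.00177), and its response in sh_TMEFF2 was −0.25 (adjusted p = 0.25). The responses differed by 0.44 with a 95% interval of 0.05 to 0.84, which did not pass after adjustment (adjusted p = 0.219). The call in sh_scramble held under all 18 alternatives, from −0.80 to −0.59.

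JAK1 (chromosome 1, 64833223 to 65067754, minus strand), the kinase most used by gp130, was at 9.28, 16.2 and 14.7 CPM in sh_scramble −DHT and at 8.98, 8.35 and 7.15 CPM in sh_scramble +DHT. It was at 17.1, 15 and 9.0 CPM in sh_TMEFF2 −DHT and at 10.7, 14.5 and 12.1 CPM in sh_TMEFF2 +DHT. The sh_scramble groups were separated by the narrow step from 8.98 to 9.28 CPM, and those of sh_TMEFF2 overlapped. The response was −0.71 ± 0.24 (SE) in sh_scramble (edgeR adjusted p = 0.0477) and −0.14 in sh_TMEFF2 (adjusted p = 0.767), and the difference was 0.57 (95% interval −0.17 to 1.31, adjusted p = 0.435). Without any 1 of 9 libraries the JAK1 call was lost, with adjusted p up to 0.163: sh_scramble −DHT replicates 2 and 3, sh_scramble +DHT replicates 1, 2 and 3, sh_TMEFF2 −DHT replicate 2 and sh_TMEFF2 +DHT replicates 1, 2 and 3. RAVER2, whose exons share 10 bases with JAK1 on the other strand, fell from 21.7 ± 2.08 to 12.5 ± 0.888 CPM in the same comparison (SD, n = 3), and a part of it in the JAK1 value was not tested.

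STAT3 (chromosome 17, 42313324 to 42388540, minus strand), the main transcription factor of gp130 signals, was at 191, 181 and 181 CPM in sh_scramble −DHT and at 213, 223 and 203 CPM with DHT. The sh_TMEFF2 libraries had 191, 219 and 194 CPM and, with DHT, at 199, 205 and 201 CPM. The sh_scramble groups did not overlap, but the step was 1.16-fold, a log2 fold change of 0.21 ± 0.063 (SE, edgeR adjusted p = 0.0259) and below the fold limit. Its response in sh_TMEFF2 was 0.00 with a 95% interval of −0.13 to 0.14.

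**Figure D3:**
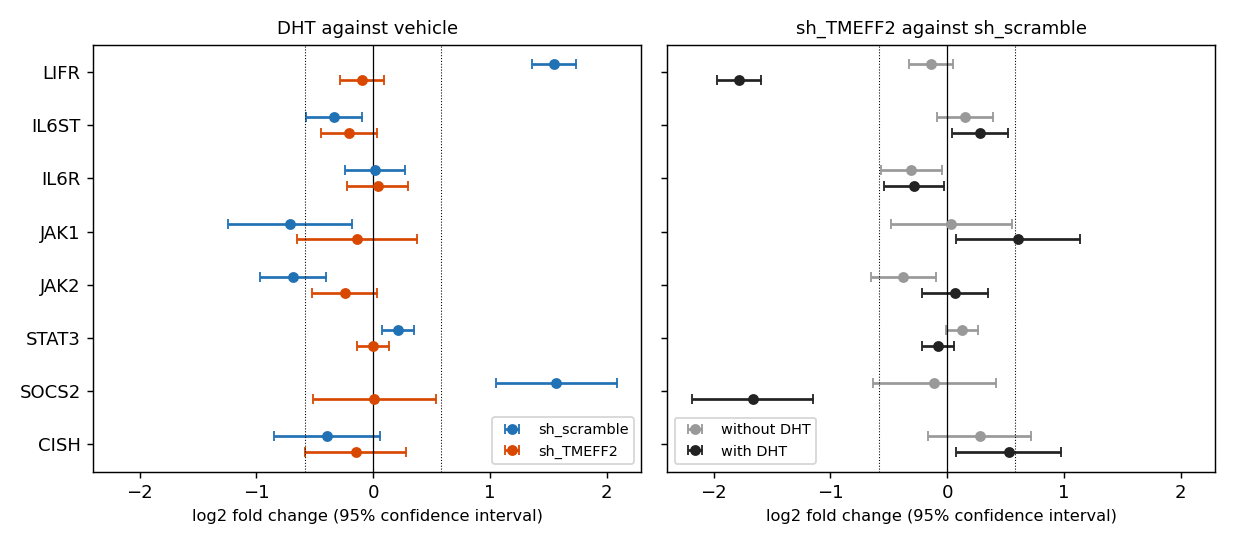
Log2 fold changes of the 8 members tested (edgeR, all 12 libraries) for DHT against vehicle in each line (left) and for sh_TMEFF2 against sh_scramble at each DHT level (right). Bars on the points are 95% intervals and dotted lines mark a 1.5-fold change. LIFR and SOCS2 lie far from 0 in the 2 comparisons that include sh_scramble +DHT, and near 0 elsewhere.

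SOCS2 (chromosome 12, 93569814 to 93583487, plus strand), the feedback inhibitor of growth hormone receptor signals, followed LIFR at a lower level. In sh_scramble it was at 4.07, 6.99 and 7.73 CPM without DHT and at 14.9, 20.9 and 19.9 CPM with DHT. In sh_TMEFF2 it was at 5.29, 5.27 and 6.82 CPM without DHT and at 4.35, 6.21 and 6.94 CPM with DHT. The sh_scramble +DHT libraries, at 295, 428 and 398 counts, were the 3 highest, and the other 9 had 90 to 158 counts. Group means were 6.26 ± 1.93, 18.6 ± 3.22, 5.79 ± 0.892 and 5.83 ± 1.33 CPM (SD, n = 3).

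The DHT response of SOCS2 was 2.97-fold in sh_scramble, a log2 fold change of 1.57 ± 0.24 (SE, edgeR adjusted p = 0.000362), and 0.01 in sh_TMEFF2, with a 95% interval of −0.52 to 0.54 (adjusted p = 0.983). The responses differed by −1.56 ± 0.34 (95% interval −2.30 to −0.82, edgeR adjusted p = 0.0204). With DHT it was 3.18-fold lower in sh_TMEFF2 (adjusted p = 0.000458), and without DHT the lines differed by −0.11 (adjusted p = 0.911). Its calls held under all 18 alternatives, though the adjusted p of the difference reached 0.0496. The overlapping SOCS2-AS1 had no row under its name among the counts and could not be analysed. The pseudogenes SOCS2P1 and SOCS2P2 had at most 1 count.

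CISH (chromosome 3, 50606489 to 50611774, minus strand), a SOCS family inhibitor of STAT5 signals, was at 2.22, 2.31 and 3.08 CPM in sh_scramble −DHT and at 1.77, 1.66 and 2.35 CPM with DHT. In sh_TMEFF2 it was at 2.93, 3.32 and 2.97 CPM and, with DHT, at 2.73, 2.92 and 2.67 CPM. The lines did not overlap with DHT, where sh_TMEFF2 was higher, and did overlap without it. The difference with DHT was 0.53 on the log2 scale with a 95% interval of 0.08 to 0.97 (edgeR adjusted p = 0.107), and the DHT response was −0.40 in sh_scramble (adjusted p = 0.181) and −0.15 in sh_TMEFF2 (adjusted p = 0.693). MAPKAPK3, whose exons overlap those of CISH by 218 bases on the other strand, was at 52.4 CPM in sh_scramble +DHT and 71.3 CPM in sh_TMEFF2 +DHT, and a part of it in the CISH values was not tested.

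SOCS1 and SOCS3, the inhibitors that bind JAK kinases directly, were close to absent. SOCS1 had 4, 0 and 3 counts in sh_scramble −DHT, 0, 0 and 3 with DHT, 4, 0 and 1 in sh_TMEFF2 −DHT and 6, 0 and 1 with DHT. SOCS3 had 5, 3 and 2 counts, 1, 0 and 0, 5, 5 and 5, and 4, 1 and 0 in the same order. No fold is given for either, as most values lie at or near the floor of 3 counts.

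Ordered per kilobase, the members in sh_scramble −DHT ran from STAT3 (37.4 ± 1.19 CPM per kilobase, SD, n = 3) through IL6ST (18.1 ± 0.944), IL6R (9.07 ± 1.25), JAK2 (6.86 ± 0.824), LIFR (3.39 ± 0.377), JAK1 (2.63 ± 0.713) and SOCS2 (2.63 ± 0.811) to CISH (1.26 ± 0.235). The libraries of IL6R and JAK2 overlapped, as did those of LIFR and JAK1 and of JAK1 and SOCS2. With DHT in sh_scramble LIFR (9.90 ± 0.691) moved to the third place and SOCS2 (7.78 ± 1.35) to the fifth, where LIFR and IL6R overlapped and so did IL6R and SOCS2. In both sh_TMEFF2 groups LIFR stayed at the fifth place, and its libraries overlapped those of the next gene.

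The genes nearest to LIFR and SOCS2 over the libraries were sought among 11155 others with a mean of at least 5 CPM, by the root mean square difference of log2 CPM centred on each gene's mean over the 12 libraries. Nearest to LIFR were CBWD1 (0.174), SLC35F2 (0.209), CDYL2 (0.220), ERRFI1 (0.225), a feedback inhibitor of the epidermal growth factor receptor, and CAMKK2 (0.227), a calcium-dependent kinase induced by androgen, beside a median of 0.747 over all genes. CBWD1 is 1 of several near-identical copies, so its value is uncertain. Nearest to SOCS2 were SLC35F2 (0.213), HMGCS1 (0.229), a cholesterol synthesis enzyme, LIFR (0.256), CAMKK2 (0.258) and C1orf21 (0.273). LIFR was thus at rank 3 for SOCS2, and SOCS2 was at rank 12 for LIFR, whereas JAK1, at rank 10721, was among the least alike. These distances describe the same 12 libraries as the fold changes.

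The rest of the pathway was read from 6 lists with 61 genes, of which 51 were tested. For DHT in sh_scramble 1 rose and 5 fell (11.8% of the 51, beside 11.9% of all genes), and for DHT in sh_TMEFF2 1 fell (1.96%, beside 4.88%). Between the lines 1 was higher and 1 lower in sh_TMEFF2, both without and with DHT, and for the difference of the DHT responses 1 was higher and 1 lower. Over the 6 lists pooled, the shares were near or below those of all genes, except between the lines without DHT, where 2 of 51 (3.92%) stand beside 0.571%. In single lists 1 called gene can make a large share, as for the ligands and the other gp130 receptors with DHT in sh_scramble, each at 1 of 4 (25%). None of the 14 other SOCS proteins and JAK-STAT inhibitors and none of the 6 other JAK2-coupled receptors were called in any of the 5 comparisons.

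Of 19 listed targets of STAT3 and STAT5, 17 were tested. For DHT in sh_scramble 1 rose, 2 fell and 14 were not called (17.6% called, beside 11.9% of all genes), with a median log2 fold change of −0.01, as over all genes. For DHT in sh_TMEFF2 1 fell and 16 were not called (5.88%, beside 4.88%). IL4R, the interleukin-4 receptor and a STAT target, was at 9.05, 8.12 and 8.96 CPM in sh_scramble −DHT and at 4.24, 5.08 and 4.55 CPM with DHT. In sh_TMEFF2 it was at 14.3, 13.2 and 13.0 CPM and, with DHT, at 7.27, 7.71 and 7.65 CPM. It fell in both lines, by 0.91 on the log2 scale in sh_scramble (edgeR adjusted p = 9.29e-05) and by 0.84 in sh_TMEFF2 (adjusted p = 0.000891), and the difference of 0.08 had a 95% interval of −0.27 to 0.42. It was 1.63-fold higher in sh_TMEFF2 with DHT (adjusted p = 0.00124) and 1.55-fold higher without DHT (adjusted p = 0.0214), the last lost on leaving out replicate 1 or 2 of either −DHT group, with adjusted p up to 0.0892.

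In sh_scramble IRF1, an interferon-induced transcription factor, was at 5.88, 5.81 and 6.71 CPM without DHT and 1.92, 2.78 and 4.45 CPM with DHT, a fall of 1.01 on the log2 scale (SE 0.24, edgeR adjusted p = 0.0086). STAT6, the factor activated by interleukin-4 and the 1 called of 6 tested in the list of other JAK kinases and STAT factors, fell by 0.85 (adjusted p = 0.036), a call lost without sh_scramble −DHT replicate 2 or 3 or sh_scramble +DHT replicate 1 or 2, with adjusted p up to 0.108. SERPINA3, an acute-phase protease inhibitor, rose from 12, 7 and 7 counts to 17, 24 and 22 counts (log2 fold change 1.31 ± 0.33, adjusted p = 0.011). VEGFA, the vascular growth factor, was at 226, 191 and 270.4 CPM in sh_scramble +DHT and 125, 106 and 138 CPM in sh_TMEFF2 +DHT, a log2 fold change of −0.90 (adjusted p = 0.0054). In each of these comparisons the groups did not overlap.

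**Figure D4:**
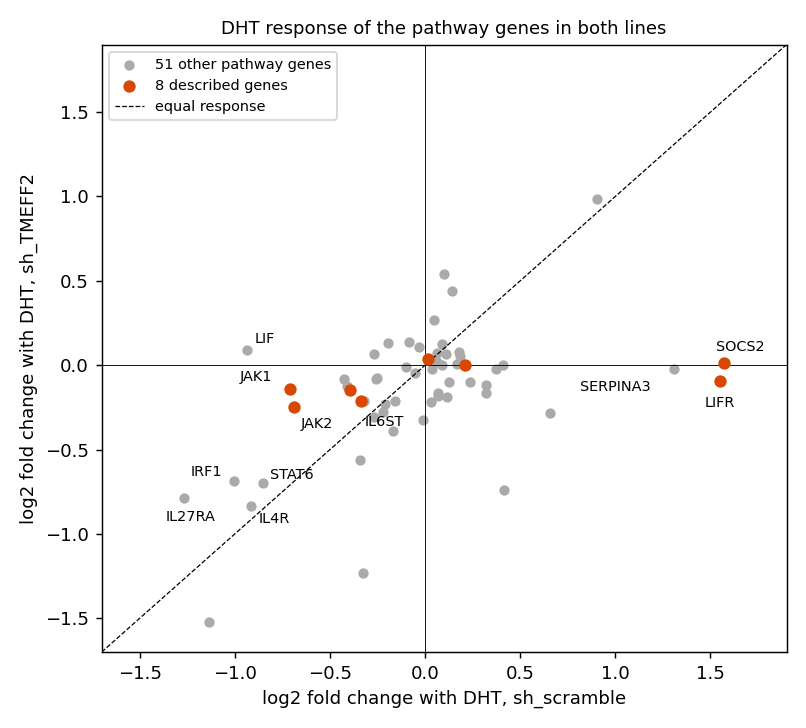
Log2 DHT response in sh_scramble (horizontal) against that in sh_TMEFF2 (vertical) for the 8 members tested and the 51 other pathway genes, from 1 fit of all 12 libraries. The dashed line marks equal responses. LIFR and SOCS2 lie at 1.55 and 1.57 on the horizontal axis and near 0 on the vertical axis, and IL4R lies near the line.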

How the data were processed

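RNA-seq of 12 LNCaP libraries (75 bp paired ends) was used. The authors checked reads with FastQC, trimmed them with Trimmomatic to at least 15 bp, ran kallisto 0.42.3, corrected for bias, on GRCh38 and deposited estimated counts per gene, scaled by library size and transcript length. These expected counts need not be whole. Use of strand and the annotation version are not given in the sources used here. The 24 columns, 2 per library, were taken as repeat runs, summed and rounded, and 0 columns were unassigned. The median chi-square ratio was 2.49 to 2.76 between the columns of a library and 4.89 to 6.28 between replicates.

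Counts were fitted in R 4.3.3 with edgeR 4.0.16 (TMM, filterByExpr with a minimum count of 10 and total of 15, quasi-likelihood test, 1 coefficient per group, all 12 libraries). P-values were adjusted by Benjamini-Hochberg over 15419 genes, and measure the spread between these libraries. The 3 libraries of a group came from 2 transductions, which the fit does not model. The p-values between the lines therefore do not cover the spread between transductions or between hairpins. The biological coefficient of variation was 0.131. Alternatives were DESeq2 1.42.0, DESeq2 size factors in edgeR, library size only, no filter, genes above a mean of 5 CPM, a replicate block, and each library left out in turn. The code was also run on counts simulated from the fit's own levels and spread, with independent libraries. That run checks the code and cannot show how shared transductions affect these data.

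The text names the members, TMEFF2, the androgen controls, cell type markers, pathway genes called in a comparison of groups without overlap, list members at or near 0, and the 5 genes most like LIFR and SOCS2. BCL2L1 and the overlapping genes and pseudogenes of members fall outside this rule, and were named after their values were seen. The members and lists were chosen with earlier results of these data known, and comparisons that share a group are not independent. Positions and lengths are from GENCODE on GRCh38. Markers are given as sums and largest counts, and of single markers only KLK3 and TMPRSS2, which are also androgen controls, are reported with tests here.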

Additional observations from a re-analysis of the deposited data

Results flagged for a closer look

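Some genes differed in their DHT response between the lines, by edgeR's test of the difference (sh_TMEFF2 response minus sh_scramble response, log2 scale, adjusted over all genes). LIFR differed by −1.64 (adjusted p = 6.65e-05) and SOCS2 by −1.56 (adjusted p = 0.0204), with every sh_scramble +DHT library above all others for both genes. LIF differed by 1.03 (adjusted p = 0.0158) and the androgen control FKBP5 by −2.50 (adjusted p = 8.4e-05). BCL2L1, an inhibitor of apoptosis and STAT target, differed by −0.48 (adjusted p = 0.028). Its level was 94.5 ± 7.72 CPM without and 118 ± 5.36 CPM with DHT in sh_scramble, and 108 ± 9.40 and 96.8 ± 4.86 CPM in sh_TMEFF2 (SD, n = 3), and the call was lost in 8 of 12 fits that left out 1 library, with adjusted p up to 0.0767.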

How the results depend on the processing

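Calls for LIFR, SOCS2 and JAK2 held under all alternatives run, and those for JAK1 were lost in 9 fits that left out 1 library. With JAK1 lost, 3 members were called for DHT in sh_scramble, against 4 in the main fit. Counts of called genes moved by over 1.5 times as follows. Between the lines without DHT the count was 88, and it was 180 with DESeq2, 157 with no filter, 144 with the replicate block and 32 to 117 with 1 library left out. For the difference of the DHT responses it was 761, with 1199 for DESeq2 and 465 to 765 with 1 library left out. For DHT in sh_TMEFF2 it was 753, with 466 to 902 on leaving out 1 library, the lowest without sh_TMEFF2 +DHT replicate 3, where lower calls went from 247 to 103. Higher calls of the difference went from 254 to 127 without sh_scramble −DHT replicate 2, and rose to 475 with DESeq2 and 432 with the replicate block. Pathway genes called for DHT in sh_scramble were 6, and 3 with genes above 5 CPM only. For DHT in sh_TMEFF2 they were 1, with 3 for DESeq2, 3 for the replicate block and 1 to 2 with 1 library left out. Between the lines without DHT they were 2, with 0 to 2 left, and for the difference of responses 2, with 1 to 2 left.

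Directions that turned all belonged to values near 0. IL6R for DHT in sh_scramble was −0.0538 with library size only and −0.0078 with genes above 5 CPM, STAT3 for DHT in sh_TMEFF2 was −0.003 with no filter, and SOCS2 there was −0.0072 with the replicate block. With 1 library left out, ranges were −0.0956 to 0.0947 for IL6R with DHT in sh_scramble, −0.0594 to 0.115 in sh_TMEFF2 and −0.074 to 0.134 for its difference. They were −0.358 to 0.0533 for JAK1 with DHT in sh_TMEFF2, −0.17 to 0.27 for JAK1 between the lines without DHT and −0.0358 to 0.188 for JAK2 between them with DHT. For DHT in sh_TMEFF2 they were −0.0038 to 0.27 for LIF, −0.12 to 0.18 for SOCS2 and −0.0338 to 0.0662 for STAT3, and for SOCS2 between the lines without DHT −0.346 to 0.0783. The cause was not tested.

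With library size only, 57.0% of genes called between the lines with DHT were higher, against 44.7%, and 48.2% for the difference of responses, against 33.4%. Same-numbered libraries correlated at −0.0017 to 0.169. As not every pair passed 0.1 and no label ties a number to a shared source, the numbers were not taken to pair the samples, although 11 of 12 libraries lay closest to their own number. The replicate block gave 1120 calls for the difference of responses (761 without it), 1903 for DHT in sh_scramble (1835), 838 for DHT in sh_TMEFF2 (753) and 1132 between the lines with DHT (1044). The 3 libraries per group and the low counts of CISH limit the precision of small changes.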
